A study of Homo sapiens with 6 samples.

Results

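Interferon and double-stranded RNA response genes are the genes that a human cell switches on when it senses foreign RNA or receives interferon. A list of 34 such genes was followed here through the 55 probe sets that the array annotation assigns to 1 of them alone, and 33 of the 34 were measured, among 19775 genes in all. STAT2, a partner of IRF9 in the interferon-activated transcription complex, was named by no probe set in the annotation used. The question was whether the transfected RNA duplexes differed in the innate response they left in the cells.

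The cells were K562, an established human erythroleukaemia line. They were nucleofected with an siRNA labelled RNAi8, in a series about PRAME, or with scrambled RNA, at up to 200 nM. After 24 hours they were given ATRA (all-trans retinoic acid) or the solvent DMSO. RNA was measured on 6 arrays from 3 independent experiments, each with 1 siRNA and 1 scrambled RNA array. ATRA was given in experiments 1 and 3, DMSO in experiment 2. All 6 samples had thus been nucleofected with a duplex, and untransfected cells were not analysed here. The 3 arrays of each RNA were called replicates from the labels, and separate cultures are stated only as independent experiments.

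Cytosolic double-stranded RNA is bound by the sensors RIG-I (gene RIGI) and MDA5 (gene IFIH1), and endosomal double-stranded RNA by TLR3, and both routes lead to type I interferon. Interferon acts back through its receptor on a complex of STAT proteins with IRF9, which binds the interferon-stimulated response element near the starts of its target genes. Among those targets are the kinase PKR (gene EIF2AK2) and the oligoadenylate synthetases, which double-stranded RNA itself activates, so that the amount of these transcripts is one usual readout of a duplex that has been sensed. K562 cells are known to have lost the gene cluster for type I interferons and to respond to interferon that is added.

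The response element was searched as its core GAAANNGAA on both strands, in RefSeq windows of 300 bases that run from 250 bases before each annotated start to 50 bases from it (GRCh38.p14). A window was found for 28 of the 34 genes. The core was present for 20 of those 28 genes (71.4%), beside 9.86% of all 27305 genes with a window. Counted by window, it was present in 69.4% for the listed genes and in 8.11% for all. IFIT2, IRF7, MX2, OAS2, OASL and USP18 had no entry in the table. The stretches below belong to the 10 genes whose DMSO and ATRA arrays did not overlap, described further on. Each was cut around a match to the letters searched, so likeness among the stretches was set by the search. Capitals mark the core as GAAANNGAA or, on the other strand, its reverse complement. RSAD2 has 2 windows, and the first lies beside the start of CMPK2. The stretches are chr2:6865781-6865839 and chr2:6877608-6877666 (plus strand) for RSAD2, chr1:1013359-1013429 (plus) for ISG15, chr11:313975-314049 (plus) for IFITM1, chr1:27672252-27672373 (minus) for IFI6, chr19:17405721-17405785 (minus) for BST2 and chr15:88638922-88638980 (plus) for ISG20. These 6 genes were higher on both DMSO arrays.
RSAD2 first window: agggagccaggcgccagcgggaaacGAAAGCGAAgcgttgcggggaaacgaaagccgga
RSAD2 second window: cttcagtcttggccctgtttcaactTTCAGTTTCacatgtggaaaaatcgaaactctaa
ISG15: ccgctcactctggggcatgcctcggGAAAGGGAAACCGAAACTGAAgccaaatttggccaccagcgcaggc
IFITM1: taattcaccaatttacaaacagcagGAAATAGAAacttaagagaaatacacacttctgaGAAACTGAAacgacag
IFI6: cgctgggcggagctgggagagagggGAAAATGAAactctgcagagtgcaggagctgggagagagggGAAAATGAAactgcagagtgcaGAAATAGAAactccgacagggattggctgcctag
BST2: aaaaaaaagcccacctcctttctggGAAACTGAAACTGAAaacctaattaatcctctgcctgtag
ISG20: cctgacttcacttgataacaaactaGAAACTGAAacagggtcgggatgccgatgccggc

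The genes that were lower on both DMSO arrays were IFIT3 (second window, chr10:89332405-89332512, plus), EIF2AK2 (chr2:37156971-37157011, minus), TAP1 (chr6:32853798-32853862, minus) and IRF1. No window of IRF1 held the core. For IRF1 the stretch chr5:132490864-132490922 (minus) shows in capitals a match to the shorter palindrome TTCNNNGAA that STAT dimers bind, a motif chosen after the data were seen. That palindrome was present for 11 of the 28 genes (39.3%), beside 9.38% of all genes with a window, and it is its own reverse complement.
IFIT3: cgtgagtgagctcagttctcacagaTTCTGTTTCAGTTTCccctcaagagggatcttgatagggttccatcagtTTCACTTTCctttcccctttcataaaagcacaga
EIF2AK2: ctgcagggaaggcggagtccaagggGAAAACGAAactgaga
TAP1: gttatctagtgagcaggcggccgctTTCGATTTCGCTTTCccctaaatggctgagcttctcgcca
IRF1: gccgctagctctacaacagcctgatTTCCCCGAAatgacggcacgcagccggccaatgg

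The element core was present for 6 of the 6 genes that were higher with DMSO and for 3 of the 4 that were lower. The 6 genes were 18.2% of the 33, beside 13.2% of all genes, and the 4 were 12.1%, beside 13.5%. This split rests on 1 DMSO experiment, and with quantile normalization IFIT3 and TAP1 left the lower group. With the mean of all probe sets EIF2AK2 and IFIT3 left the lower group and IFIT2 joined it, while XAF1 joined the higher group. With array medians set equal ISG15 left the higher group. Whether the element differs between the directions was not tested. Of the genes higher with DMSO, ISG15 held 3 overlapping cores, IFI6 held 3, and BST2 and IFITM1 held 2 each. Of those lower with DMSO, IFIT3 held 5 over its 2 windows, 3 of them in the printed one, and TAP1 held 2 that overlap. Among the 10 genes, matches of the 2 motifs overlapped in BST2 and IFITM1. A match describes these letters and was not tested as a binding site.

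**Figure D1:**
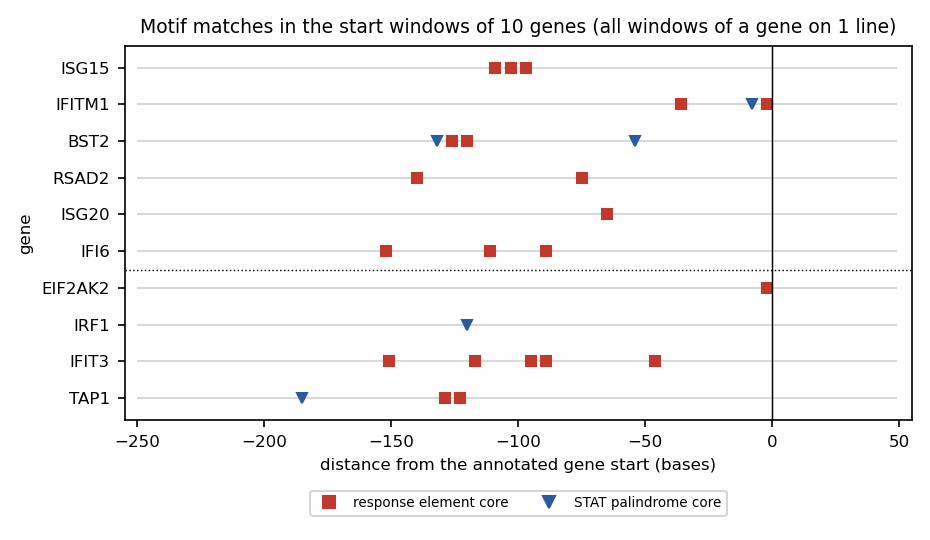
Position of each motif match in the start windows of 10 genes, as bases from the annotated start (x axis). The 6 genes above the dotted line were higher on both DMSO arrays and the 4 below it lower; squares are matches to the response element core and triangles to the STAT palindrome core, which IRF1 alone of the 10 holds without the other.

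Each array gave a deposited log2 value per probe set, with array medians between 5.96 and 6.02, and each gene was represented by its probe set with the highest mean. The median of all probe sets was 5.99, and a gene below it is called dim here, since its signal was not shown to exceed background. Experiment 3 stood apart from the others. Across probe sets, which are not replicates, r between its arrays and the remaining ones was 0.979 to 0.982, and r among experiments 1 and 2 was at least 0.9965. In experiment 3 the 3' end of actin read 2.98 and 3.36 above its 5' end, against 0.63 to 0.92 elsewhere. The same gap for GAPDH was 1.20 and 0.74 there and 0.03 to 0.08 elsewhere. K562 markers were at or above the dim limit for 9 of 9 genes, with a median level of 9.88. For other cells, 3 of 9 markers of T and NK cells, 2 of 6 of B cells, 4 of 8 of monocytes, macrophages and dendritic cells and 2 of 6 of stromal cells reached it. Their median levels were 5.75, 5.92, 5.97 and 5.70, and LYZ had the highest level, 9.73. The T and NK cell marker PRF1 read 6.98 and the B cell marker CD79B 6.70. A level somewhat above the dim limit was thus not shown to exceed background either. In such bulk samples fewer cells with a transcript and less of it per cell cannot be told apart. PRAME itself was lower with the siRNA in each experiment, with differences of -0.88, -0.85 and -0.60, leaving 58.4% of the signal (limma with the experiment as a block, adjusted p = 9.97e-04, and adjusted p = 1 without the block).

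Of the 33 measured genes, 16 were at or above the dim limit and 17 were below it. This was 48.5% of them, beside 65.1% of all 19775 genes. The dim genes were the sensors IFIH1, DDX60 and TLR3, the synthetases OAS1 and OAS2, the IFIT family members IFIT1, IFIT2 and IFIT5, HERC5 and USP18, MX1 and MX2, IFI27, IFI44, IFI44L, XAF1 and PSMB9. Their means ran from 2.80 for DDX60 to 5.90 for IFI27. Of the ligands in the wider pathway, IFNB1, which encodes interferon beta, lay at 5.32, IFNA1 at 3.28 and the interferon-induced chemokine CXCL10 at 5.27, all dim. A dim signal gives no order of levels among these genes.

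The siRNA and the scrambled RNA gave levels that overlapped for each of the 33 genes. With treatment as a covariate, limma called 0 of 33 genes and 0 of 19775 (0%) at an adjusted p below 0.05. This fit held no experiment term and did not call PRAME either. At an unadjusted p below 0.05 it reached 0 of the 33, beside 255 genes in all (1.29%). When each siRNA array was set against the scrambled array of its own experiment, with the experiment as a block, 5 genes in all were called (0.0253%) and again 0 of the 33. At an unadjusted p below 0.05 the blocked fit reached 1 of the 33, beside 1268 genes in all (6.41%). The median difference over the 33 genes was -0.01 (log2, siRNA minus scrambled RNA), beside 0.01 over all genes, with 16 genes above 0 and 17 below. The largest difference of either sign was 0.18 (1.13-fold).

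The width of the intervals shows which differences these arrays could have missed. With the block, the 95% intervals of all 33 genes lay within 0.5 log2 units of 0 (1.41-fold), from -0.34 as the lowest bound (IFI27) to 0.32 as the highest (OAS1). Without the block 30 of the 33 lay within 0.5 and all 33 within 1, from -0.64 (IFI6) to 0.67 (EIF2AK2). For the 17 dim genes the interval is one of array signal, which can hide a change of a transcript close to background. The comparison sets the duplexes against each other, so a response that both shared, or one to nucleofection, would not appear in it.

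**Figure D2:**
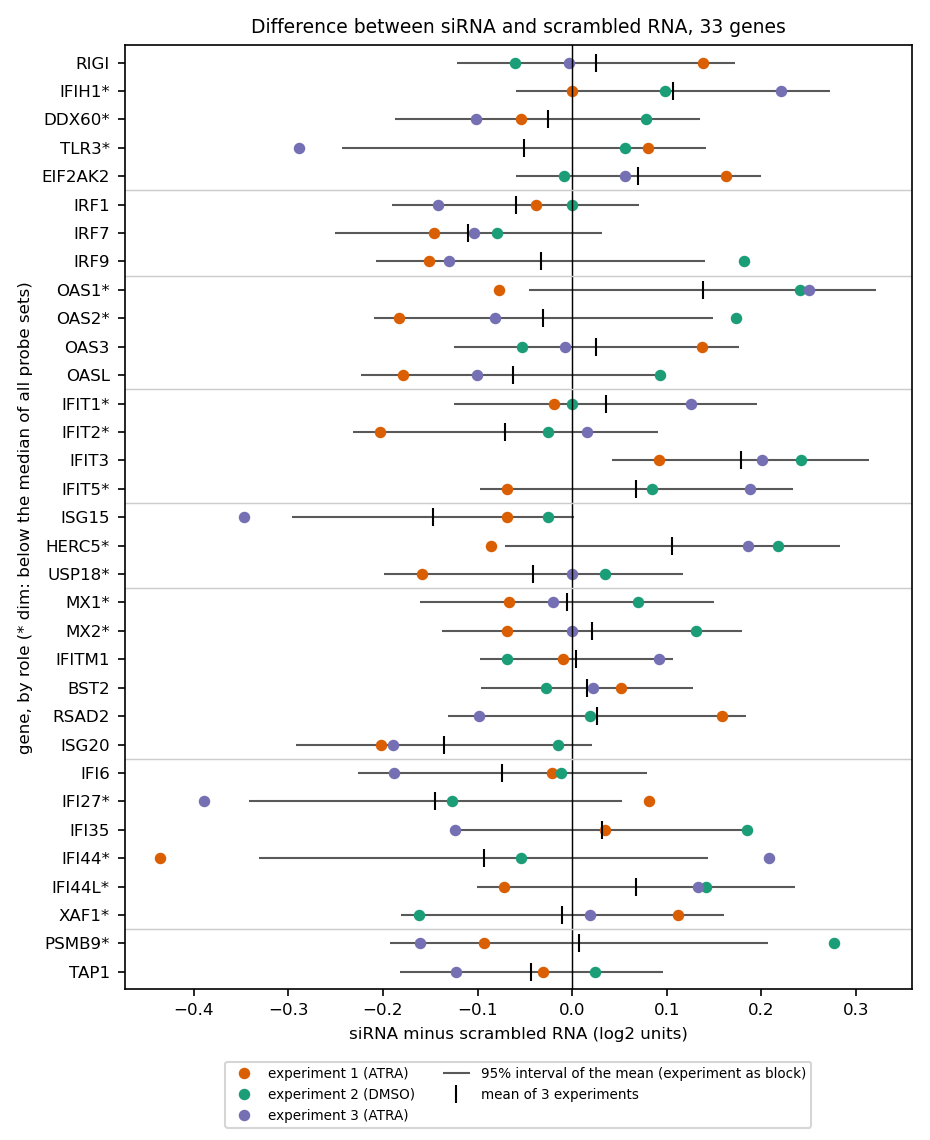
Difference between the siRNA and the scrambled RNA array of each experiment for 33 genes in log2 units (x axis), ordered by role; points are the experiments, the short bar is their mean and the line its 95% interval from limma with the experiment as a block. The means lie between -0.15 and 0.18, and IFIT3 is the gene with all 3 points above 0.

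Higher signal with the siRNA in all 3 experiments was found for 1 of the 33 genes (3.03%), beside 13.1% of all genes. This count depended on the processing. With the mean of all probe sets it was 3 (RIGI, IFIT3 and RSAD2), beside 13.8% of all genes, and with quantile normalization 4 (IFIH1, EIF2AK2, IFIT3 and BST2), beside 14.4%. The gene in all of these was IFIT3, a member of the IFIT family of proteins that bind viral RNA. Its log2 level was 7.89, 7.33 and 7.58 with the siRNA and 7.80, 7.08 and 7.38 with the scrambled RNA in experiments 1, 2 and 3. The siRNA array was thus the higher one of each pair, while the spread between experiments was larger and the groups overlapped. The difference was 0.09, 0.24 and 0.20, with a mean of 0.18 and a blocked 95% interval of 0.04 to 0.31 (limma, unadjusted p below 0.05, adjusted p = 0.771, and 0.771 to 1 over all settings tried). A second IFIT3 probe set also read higher each time, by 0.01, 0.18 and 0.06.

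The rest of the IFIT family, which binds RNA or its partners, was dim. IFIT1, IFIT2 and IFIT5 had mean differences of 0.04, -0.07 and 0.07. None of the 3 kept 1 sign in all experiments.

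Lower signal with the siRNA in all 3 experiments was found for 4 of the 33 genes (12.1%), beside 11.9% of all genes. They were ISG15, ISG20, IRF7 and IFI6. This list depended on the processing too. With the mean of all probe sets it was IRF1, IRF7, ISG15 and IFI6, beside 11.8% of all genes. With quantile normalization it was IRF7, ISG20 and IFI6, beside 14%. Among the 16 genes that were not dim, 4 were lower throughout (25%, beside 13.7%) and 1 higher (6.25%, beside 14.1%). ISG15 encodes a ubiquitin-like protein that is attached to other proteins during the response. Its level was 9.10, 9.20 and 8.82 with the siRNA and 9.16, 9.22 and 9.16 with the scrambled RNA. The siRNA array of experiment 3 was the lowest of the 6, and the others lay close together. The differences were -0.07, -0.03 and -0.35, with a mean of -0.15 (blocked 95% interval -0.30 to 0.002, limma adjusted p = 0.773). ISG20 encodes an exonuclease that degrades single-stranded RNA. It read 5.90, 6.14 and 5.85 with the siRNA and 6.11, 6.16 and 6.04 with the scrambled RNA. The groups overlapped, and the mean difference was -0.14 (blocked 95% interval -0.29 to 0.02, limma adjusted p = 0.789). A second, dim ISG20 probe set gave the opposite sign, 0.12. IRF7, the transcription factor that amplifies interferon alpha production, differed by -0.15, -0.08 and -0.10, and IFI6, a mitochondrial and endoplasmic reticulum protein, by -0.02, -0.01 and -0.19.

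Among the sensors, RIGI read 6.87, 6.84 and 7.14 with the siRNA and 6.73, 6.90 and 7.14 with the scrambled RNA, a mean difference of 0.03. On this probe set both arrays of experiment 3 were the highest. The other 2 RIGI probe sets, both dim, were above the scrambled RNA each time, by 0.14, 0.06 and 0.08 and by 0.14, 0.10 and 0.34. EIF2AK2 read 8.26, 8.02 and 8.85 with the siRNA and 8.10, 8.03 and 8.80 with the scrambled RNA, a mean difference of 0.07. Here too experiment 3 was the highest with either duplex. A second EIF2AK2 probe set differed by 0.28, -0.14 and 0.38. The dim sensors IFIH1, DDX60 (a helicase that acts with RIG-I) and TLR3 differed by 0.11, -0.03 and -0.05, so that 3 of the 5 sensors were above 0 and 2 below.

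The 3 measured transcription factors all had means below 0, from -0.11 for IRF7 to -0.03 for IRF9. IRF1, an early activator that interferon gamma induces strongly, read 8.09, 7.66 and 7.85 with the siRNA and 8.13, 7.66 and 7.995 with the scrambled RNA. The pairs lay close together, and the mean difference was -0.06. A second IRF1 probe set was lower with the siRNA each time, with -0.12, -0.05 and -0.24. IRF9 read 6.63, 6.92 and 6.35 with the siRNA and 6.78, 6.74 and 6.48 with the scrambled RNA. It was lower with the siRNA under ATRA and higher under DMSO, with a mean of -0.03.

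Of the oligoadenylate synthetases, which make the messenger that activates RNase L, OAS1 and OAS3 had means above 0 (0.14 and 0.03) and OAS2 and OASL below (-0.03 and -0.06). These signs held for the chosen probe sets only. The other probe sets, all dim, gave the opposite sign for each gene. They read -0.09 for OAS1, 0.21 and 0.11 for OAS2, -0.03 for OAS3 and 0.02 for OASL. OASL, a catalytically inactive relative that supports RIG-I, read 6.45, 6.65 and 6.34 with the siRNA and 6.63, 6.56 and 6.44 with the scrambled RNA. The 2 groups overlapped. HERC5, the ligase that attaches ISG15, and USP18, the protease that removes it, were dim and differed by 0.11 and -0.04.

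The effectors that act on viral entry, replication and budding had means between -0.14 and 0.03. IFITM1, a membrane protein that blocks viral fusion, read 12.75, 12.92 and 12.76 with the siRNA and 12.76, 12.99 and 12.67 with the scrambled RNA. BST2, or tetherin, which holds budding virions at the cell surface, read 9.55, 9.62 and 9.33 with the siRNA and 9.50, 9.65 and 9.31 with the scrambled RNA. The mean differences were 0.004 and 0.02, with blocked 95% intervals of -0.10 to 0.11 for IFITM1 and -0.10 to 0.13 for BST2. Both transcripts were well above the dim limit, and in both the pairs differed by less than 0.10. RSAD2, or viperin, which makes a chain-terminating nucleotide, differed by 0.16, 0.02 and -0.10. Its second probe set, which was not dim, was above the scrambled RNA each time, by 0.17, 0.09 and 0.27. The dim GTPases MX1 and MX2 differed by -0.01 and 0.02.

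IFI35, an interferon-induced leucine zipper protein, read 7.58, 7.68 and 7.18 with the siRNA and 7.54, 7.50 and 7.31 with the scrambled RNA, a mean difference of 0.03. TAP1, which carries peptides to HLA class I, read 7.19, 7.14 and 7.14 with the siRNA and 7.22, 7.12 and 7.27 with the scrambled RNA, a mean difference of -0.04. In neither did the groups separate. The dim genes IFI27, IFI44, IFI44L, XAF1 and PSMB9 had means between -0.14 and 0.07.

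The experiments did not share a direction. The siRNA array was higher for 10 and lower for 22 of the 33 genes in experiment 1, higher for 18 and lower for 13 in experiment 2, and higher for 13 and lower for 18 in experiment 3. The medians were -0.05, 0.02 and -0.01, beside 0.001, 0 and 9e-04 over all genes. The 55 probe sets of the 33 genes were also tested one by one. Of them 30 read higher with the siRNA, the median difference was 0.02 and limma called 0 at an adjusted p below 0.05, with 0 at an unadjusted p below 0.05. Over all 54613 probe sets it called 0, with 657 at an unadjusted p below 0.05 (1.2%). Blocking on the experiment, limma called 0 of the 55 and 1 of all probe sets. In that blocked fit 4 of the 55 had an unadjusted p below 0.05, beside 2878 of all (5.27%). All 4 were higher with the siRNA, and they belonged to RIGI (0.19), OAS2 (0.21), IFIT3 (0.18) and RSAD2 (0.18), with a blocked adjusted p of 0.872 each in limma.

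The wider pathway list held 124 further genes, of which 115 were measured. Of these, 69 were higher with the siRNA (60%, beside 52.9% of all genes) and 46 lower, with a median of 0.03, and limma called 0. At an unadjusted p below 0.05 there were 2 higher and 1 lower, beside 1.29% of all genes. With the block there were 5 higher and 2 lower, beside 6.41% of all genes. The 5 genes named next had the smallest p among those with a mean of at least 6.73 and 1 sign in all 3 experiments. SOCS1, which feeds back to block the receptor's kinases, was higher by 0.39, 0.27 and 0.13 (limma, blocked adjusted p = 0.645). CMPK2, a nucleotide kinase and neighbour of RSAD2, was higher by 0.21, 0.05 and 0.28 (blocked adjusted p = 0.771). TRIM21, an antibody receptor and ubiquitin ligase, and NMI, a partner of IFI35, were higher in all 3 experiments with means of 0.12 and 0.09, and the receptor chain IFNAR1 was lower in all 3 with a mean of -0.06. The adjusted p of these 5 genes was 1 without the block. Of the 14 genes for handling double-stranded RNA and RNA interference, 11 were above 0 (78.6%, beside 52.9%) and 3 below, with a median of 0.05 and 0 called. The experiments did not share this lean. There were 13 higher and 0 lower in experiment 1, 6 and 8 in experiment 2, and 9 and 5 in experiment 3.

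Whether the difference between duplexes depended on ATRA was asked by an interaction, in which each DMSO group was 1 array. In limma 0 of the 33 genes and 0 of all genes (0%) were called, and at an unadjusted p below 0.05 there were 0 of the 33 beside 262 genes in all (1.32%). With the experiment as a block, 0 were called (0%), and at an unadjusted p below 0.05 there was 1 of the 33, beside 655 in all (3.31%). That gene was PSMB9, an immunoproteasome subunit. It was dim, and its siRNA difference was -0.09 and -0.16 under ATRA and 0.28 under DMSO (limma, blocked adjusted p = 0.998). The difference of siRNA effects (ATRA minus DMSO) was -0.32 for IRF9, -0.23 for OASL and -0.23 for IFI35, the largest among genes that were not dim. Their 95% intervals without the block all held 0, as for IRF9 with -1.13 to 0.48. With the block the intervals were narrower and still held 0. They were -0.65 to 0.001 for IRF9, -0.57 to 0.10 for OASL and -0.55 to 0.09 for IFI35. Over the 33 genes 24 were below 0 and 9 above, with a median of -0.10, beside 0.003 over all genes, and this rests on the single DMSO pair. In the wider pathway 0 of 115 genes were called, and the genes of smallest p among those with a mean of at least 6.73 were APOBEC3G, a cytidine deaminase that restricts retroviruses (-0.39), IRF2BP2 (0.22), AGO3 (0.18), HLA-B (-0.27) and SP110 (0.16).

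ATRA was compared with DMSO on experiment means, 2 against 1, so treatment and experiment cannot be told apart for the DMSO side. Limma called 0 of the 33 genes and 0 of all genes (0%). At an unadjusted p below 0.05 there was 1 of the 33, beside 235 genes in all (1.19%). That gene was RSAD2. Over the 33 genes 14 were higher with ATRA and 19 lower, with a median of -0.01, beside -0.01 over all genes. Among the 16 that were not dim, 6 were higher and 10 lower, with a median of -0.15.

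RSAD2 read 6.45 and 6.30 in experiment 1, 7.13 and 7.11 in experiment 2 and 6.12 and 6.21 in experiment 3, with the siRNA array given first. Both DMSO arrays lay above all 4 ATRA arrays by a clear gap, with either duplex. The difference was -0.85 ± 0.15 (SE, 2 experiments against 1), a 1.81-fold lower signal, with a 95% interval of -1.27 to -0.43 (limma, adjusted p = 0.995). It was -0.75 in experiment 1 and -0.96 in experiment 3. A second RSAD2 probe set gave -0.85 and -1.30. When every array entered and experiment was a random block, limma gave an adjusted p of 0.972. Set against experiment 2 alone with arrays as replicates, the adjusted p was 0.0286 for experiment 1 and 2.25e-06 for experiment 3, a test of these experiments and not of the treatment.

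CMPK2 starts head to head with RSAD2 on chromosome 2. The annotated starts of CMPK2 lie 750, 66 and 22 bases from the first RSAD2 start, and the windows of the nearer pair overlap the RSAD2 window by 165 and 77 bases. CMPK2 read 10.11 and 9.90 in experiment 1, 10.51 and 10.47 in experiment 2 and 9.97 and 9.69 in experiment 3. Its DMSO arrays were the highest of the 6 as well, and ATRA minus DMSO was -0.57 (-0.48 and -0.66 by experiment, limma adjusted p = 0.995).

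**Figure D3:**
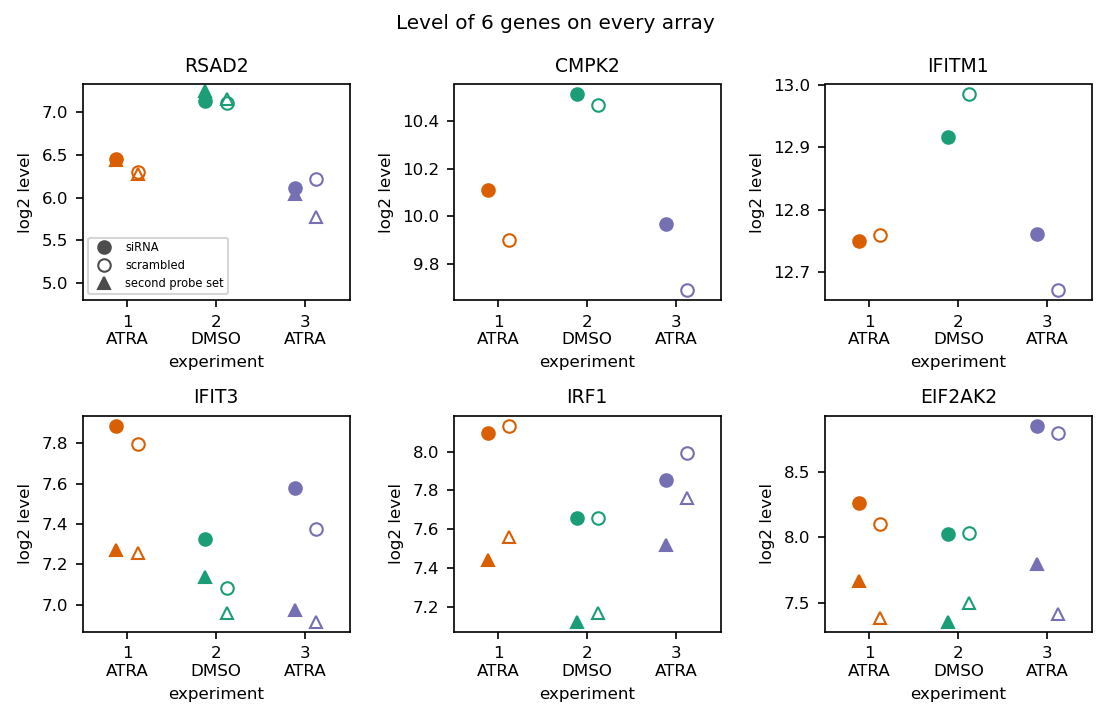
Log2 level (y axes, each with its own range that does not start at 0) of 6 genes on every array, by experiment (x axes); filled points are siRNA and open points scrambled RNA, and triangles a second probe set of the gene. RSAD2, CMPK2 and IFITM1 are highest in the DMSO experiment, and IRF1 is lowest there with both probe sets.

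Both DMSO arrays lay above all 4 ATRA arrays for 6 of the 33 genes (18.2%), beside 13.2% of all genes. Besides RSAD2 these were IFITM1 (-0.22), BST2 (-0.22), ISG15 (-0.15), ISG20 (-0.18) and IFI6 (-0.40), given as ATRA minus DMSO. With array medians set equal ISG15 left this group, and the count was 5, beside 10% of all genes. With the mean of all probe sets XAF1 joined it, and the count was 7, beside 14.5%. All 6 genes of the effector group had a mean below 0 in both ATRA experiments, which were set against the same DMSO experiment. The median was -0.20, and 1 of the 6 reached an unadjusted p below 0.05 in limma. MX1 (-0.05) and MX2 (-0.07) were dim. For ATRA minus DMSO, 10323 of all 19775 genes were below 0. For IFITM1 the difference was -0.20 in experiment 1 and -0.23 in experiment 3. For IFI6 it was -0.09 and -0.71, so most of it lay in experiment 3, the experiment with the wide 3' to 5' gaps. The part of those gaps in the result was not tested. The ISG15 group had 3 of 3 means below 0, from -0.15 for ISG15 to -0.02 for USP18. HERC5 (-0.07) and USP18 were dim.

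Both DMSO arrays lay below all 4 ATRA arrays for 4 of the 33 genes (12.1%), beside 13.5% of all genes. These were IFIT3, IRF1, EIF2AK2 and TAP1. With quantile normalization the count was 2 (EIF2AK2 and IRF1), beside 12.6% of all genes. With the mean of all probe sets it was 3 (IRF1, IFIT2 and TAP1), beside 11%. IFIT3 was higher with ATRA by 0.45 (0.64 in experiment 1 and 0.27 in experiment 3), but its second probe set gave 0.06 (0.22 and -0.10) and its arrays overlapped. IRF1 was higher by 0.36 (0.46 and 0.27), and its second probe set by 0.43 (0.36 and 0.49). EIF2AK2 was higher by 0.48, with 0.16 in experiment 1 and 0.80 in experiment 3. Its second probe set gave 0.14 (0.10 and 0.18) with overlapping arrays, and another, dim one gave -0.06. TAP1 was higher by 0.07 (0.07 and 0.08). None of the 4 reached an unadjusted p below 0.05 on experiment means in limma.

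The fits that use all arrays brought more genes past the unadjusted threshold. With experiment as a random block, limma called 2 genes in all (0.0101%) and 0 of the 33. At an unadjusted p below 0.05 it reached 3 of the 33 (RSAD2, IFIT3 and IRF1), beside 371 genes in all (1.88%). Experiment 1 against experiment 2, with arrays as replicates, gave 132 genes (0.668%) and 3 of the 33, which were RSAD2, IFIT3 (adjusted p = 0.037) and IFITM1 (adjusted p = 0.0468). Experiment 3 against experiment 2 gave 6777 genes (34.3%) and 9 of the 33 (27.3%). Over all settings the adjusted p of IFIT3 ran from 0.022 to 1 and that of IFITM1 from 0.0468 to 1.

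**Figure D4:**
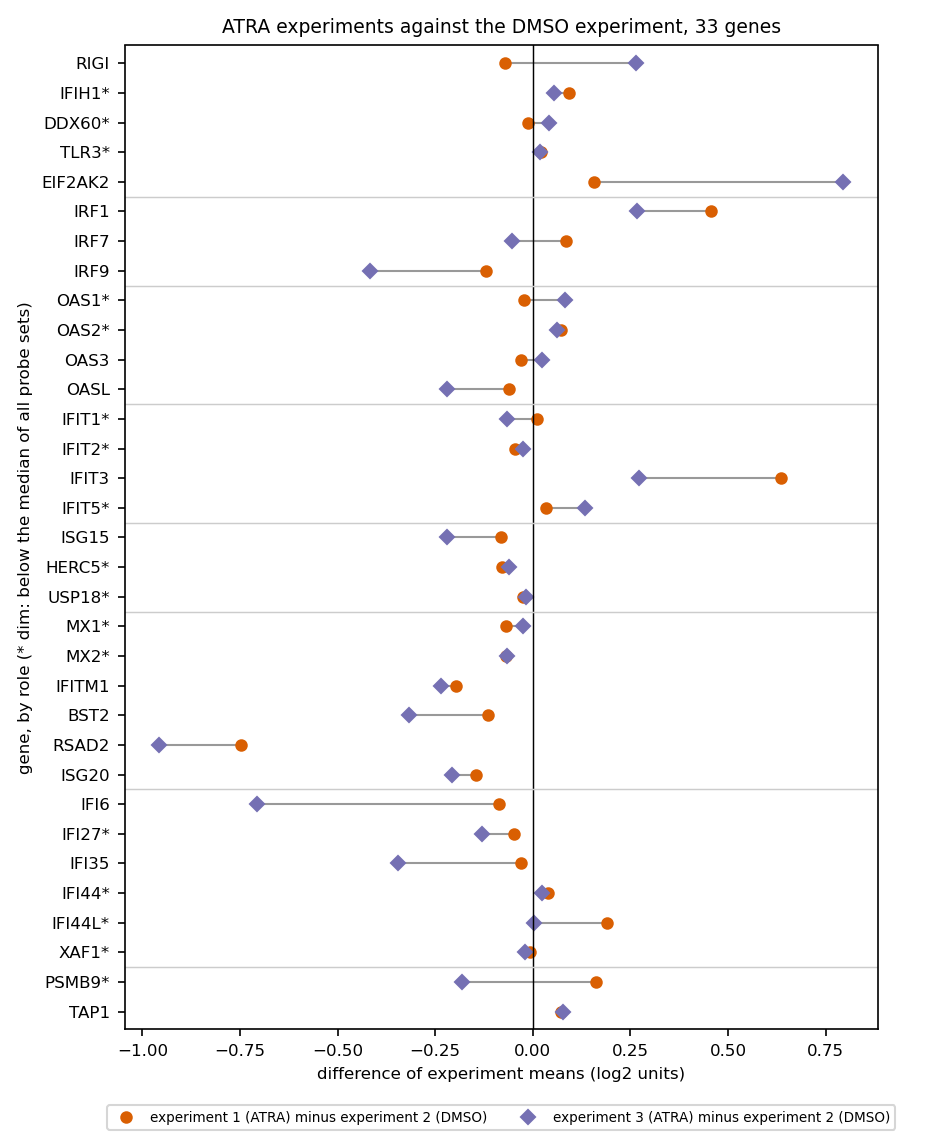
Difference of each ATRA experiment from the DMSO experiment for 33 genes in log2 units (x axis), ordered by role; both differences use the same DMSO experiment, and a line joins the 2 values of a gene. RSAD2 lies lowest with -0.75 and -0.96, all 6 effectors lie below 0, and the values of EIF2AK2 and IFI6 lie far apart.

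RIGI was named as retinoic acid-inducible gene I for its induction by retinoic acid in another leukaemia line. Its ATRA minus DMSO difference was 0.10 (limma 95% interval -0.48 to 0.67, adjusted p = 0.995), with -0.07 in experiment 1 and 0.26 in experiment 3. Its DMSO arrays, at 6.84 and 6.90, lay among the ATRA arrays. The other RIGI probe sets, both dim, gave 0.01 (-0.04 in experiment 1 and 0.07 in experiment 3) and 0.30 (0.09 and 0.50). Their DMSO and ATRA arrays overlapped too. All 5 sensors, 3 of them dim, had a mean difference above 0, from 0.02 for DDX60 to 0.48 for EIF2AK2, beside 47.8% of all genes. In experiment 1 alone 3 of the 5 were above 0, and in experiment 3, with the wide 3' to 5' gaps, 5 of 5. Of the other transcription factors, IRF9 differed by -0.27 and IRF7 by 0.02, both with overlapping arrays.

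In the wider pathway list 64 of 115 genes were higher with ATRA (55.7%, beside 47.8% of all genes) and 51 lower, with a median of 0.02 and 0 called. At an unadjusted p below 0.05 there were 4 higher and 1 lower in limma, beside 1.19% of all genes. The genes named next had the smallest p among those with a mean of at least 6.73, as had CMPK2, whose values stand beside those of RSAD2. IRF2BP2, a corepressor partner of IRF2, read 11.51 and 11.50 in experiment 1, 10.71 and 10.93 in experiment 2 and 11.53 and 11.53 in experiment 3. All 4 ATRA arrays lay above both DMSO arrays, and the difference was 0.70 (limma, unadjusted p below 0.05, adjusted p = 0.995). DTX3L, a ubiquitin ligase of the interferon response, differed by 0.57 (0.42 in experiment 1 and 0.72 in experiment 3). SOCS1 differed by -0.80 (-0.41 and -1.19) and IFITM2, a relative of IFITM1, by -0.58 (-0.34 and -0.83). None of DTX3L, SOCS1 and IFITM2 had an unadjusted p below 0.05 in limma. The 14 genes for handling double-stranded RNA and RNA interference had a median of 0.22, with 11 above 0 (78.6%, beside 47.8%) and 0 called. In experiment 1 alone 8 of the 14 were above 0, with a median of 0.09. In experiment 3, with the wide 3' to 5' gaps, 11 were, with a median of 0.26.

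**Figure D5:**
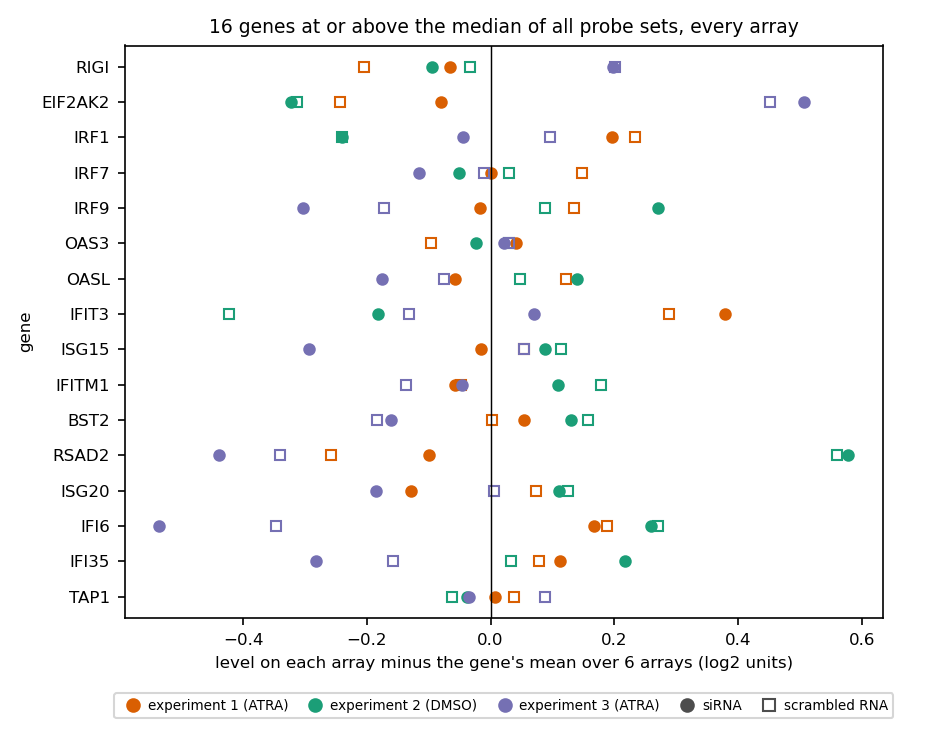
Level of the 16 genes that were not dim on each of the 6 arrays, minus the gene's own mean (x axis, log2 units); colours are the experiments, filled circles the siRNA and open squares the scrambled RNA. The arrays of an experiment lie close together for most genes, RSAD2 is highest on both DMSO arrays and EIF2AK2 on both arrays of experiment 3.

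Among the 16 genes that were not dim, RSAD2, EIF2AK2 and IFI6 covered the widest ranges between experiment means, from 6.16 to 7.12, from 8.03 to 8.82 and from 5.91 to 6.62. The siRNA and scrambled arrays of 1 experiment differed by at most 0.35 among these 16 genes (ISG15, experiment 3). That quantity reached 0.44 among the dim genes (IFI44, experiment 1) and 1.10 over all genes.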

How the data were processed

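Total RNA of 6 K562 samples was measured on Affymetrix Human Genome U133 Plus 2.0 arrays. The deposited values are log2 expression to which the authors applied RMA in the BRB Array Tools package, per the series' design text and the submitters' processing notes. For RMA, version and settings were not given in the sources used here. Of 54675 probe sets, 62 were controls, 41091 had 1 gene in the platform annotation, 1801 several and 11721 none. Each of 19775 genes was represented by its probe set with the highest mean. Probe sets of several genes, among them 1 of IRF9 and 1 of IFITM1, were not used.

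Models were fitted with limma 3.58.1 (R 4.3.3; eBayes with its trend option), and adjusted p-values (Benjamini-Hochberg, every gene included) were held against 0.05. Residual degrees of freedom were 3 for siRNA against scrambled RNA (treatment as covariate), 2 for the interaction of 4 groups and 1 for ATRA against DMSO, on experiment means. With few arrays precision is low, and p-values measure the spread between these samples. Samples of the same experiment number were taken as pairs in the blocked fits and the differences by experiment, since the labels mark independent experiments. The main siRNA and interaction fits held no experiment term. Deviations from group means correlated at 0.679, 0.795 and 0.883 within the numbers, where both arrays also share the treatment. The siRNA fit with and without the block, the interaction without it and the ATRA fit on experiment means were run on simulated data. The other fits were not. Simulated experiments differed with the same spread as simulated arrays, so the distance of experiment 3 was not copied.

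The listed genes, the wider pathway list and the motif were chosen with earlier results of these data known. Values on every array were given for genes with a mean of at least the tested genes' median (6.73), for genes past a threshold and for the 3 largest differences per comparison among genes that were not dim. Of the pathway list, up to 5 genes per comparison were named, those with the smallest p among genes with a mean of at least 6.73 and, for the siRNA, 1 sign in all 3 experiments. IRF7, IFI6, PSMB9 and some dim genes were named after their values were seen. Alternatives were the mean of a gene's probe sets, a filter on dim genes, other scalings, no intensity trend, the experiment as a block and leaving out arrays or experiments. PRAME differences came from 1 probe set. Gene symbols of 19735 genes matched the RefSeq table (GRCh38.p14).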

Additional observations from a re-analysis of the deposited data

Results flagged for a closer look

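In 3 of the 33 genes, 1 of the 4 ATRA arrays lay far from the other 3 by Dixon's test at the 95% level. For 4 independent values chance marks about 1 in 20 groups. The ATRA arrays were pairs from 2 experiments, so this rate need not hold for them. The share over all genes was not counted. OAS3 read 6.44 with the scrambled RNA in experiment 1, against 6.56 to 6.58 on the others. IFIT1, which was dim, read 4.19 with the scrambled RNA in experiment 3, against 4.32 to 4.34. IFITM1 read 12.67 with the scrambled RNA in experiment 3, against 12.75 to 12.76. Each of the 3 was the lowest array, was a scrambled RNA array and lay within 0.15 of the nearest other array.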

How the results depend on the processing

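The limits are those of 3 experiments with 1 under DMSO: p-values rest on few degrees of freedom, dim genes have only array signal, and probe sets of several genes were left out. No setting tried for the siRNA comparison or the interaction called any of the 33 genes. With the replicate block, 5 genes in all were called in the siRNA comparison (1 with the block and without experiment 2, chosen after seeing the data), and 1 probe set in the fit of every probe set. Leaving out 1 experiment or array gave 0 to 2 genes called. For ATRA against DMSO, 2 genes were called with the experiment as a random block and 4 with all arrays and no block, and leaving out an experiment gave 132 to 6777 genes and 3 to 9 of the 33; these leave-outs use arrays as replicates. The median over the 33 genes of the difference of siRNA effects ran from -0.1313 to -0.0409 when an experiment was left out, and that of ATRA minus DMSO was -0.15 over genes that were not dim. With the mean of all probe sets 3 of the 33 genes were higher with the siRNA throughout, and with quantile normalization 4, while 2 then had both DMSO arrays below all ATRA arrays. The cause was not tested. Differences near 0 changed sign in places. With quantile normalization the siRNA difference of IFITM1 was -0.0044, and with the block and without experiment 2 that of IFI35 was -0.0446. Leaving out arrays or experiments, the siRNA difference ran from -0.10 to 0.13 for RIGI, -0.14 to 0.26 for EIF2AK2, -0.12 to 0.0176 for IRF1, -0.0393 to 0.0406 for IFITM1, -0.0523 to 0.0709 for BST2, -0.0588 to 0.17 for IFI35, -0.14 to 0.0851 for IRF9, -0.14 to 0.0161 for OASL and -0.0716 to 0.12 for RSAD2. The difference of siRNA effects of RSAD2 ran from -0.12 to 0.14, and the ATRA difference of RIGI from -0.0708 to 0.26. RSAD2 was lower with ATRA under every setting tried, from -0.96 to -0.75, with an adjusted p from 2.25e-06 to 1.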

Other observations

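Some genes had the very same deposited value on the siRNA and the scrambled RNA array of an experiment, to every digit of the file. In experiment 1 this held for 1075 of 19775 genes (5.44%), in experiment 2 for 771 (3.9%) and in experiment 3 for 561 (2.84%). Among the 33 genes it held for IFIH1 in experiment 1, for IRF1 and IFIT1 in experiment 2 and for USP18 and MX2 in experiment 3. IRF1, at 7.66 on both DMSO arrays, was the only one of these 5 that was not dim. No pair of arrays was identical as a whole.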
